A study of Mus musculus with 22 samples.

Results

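The miR-221 and miR-222 pair was followed through 22 small RNA libraries of mouse round spermatids (RS), the haploid cells that follow meiosis in the testis. The pair was taken as the table rows named mmu-miR-221-3p, mmu-miR-221-5p and mmu-miR-222-3p, which are 3 of the 1966 mature miRNA names counted, and all 3 were found. The study asked how miRNAs of RS change when GRTH (DDX25), a testis RNA helicase needed to complete spermatid development, is lost or cannot be phosphorylated. Its 4 groups came from mice 75 to 85 days old in 2 experimental batches: 5 WT and 5 GRTH-KO libraries in one batch, and 6 WT and 6 GRTH-KI libraries in the other. KO mice lack GRTH, and KI mice carry a human GRTH gene with an arginine-to-histidine change that leaves them without the phosphorylated protein. RS were separated from whole testes by enzymatic digestion and sedimentation through an albumin gradient, so residual other cells can contribute RNA. The paper checked fraction purity by DAPI staining under a microscope and reports RS as the great majority of the cells. The labels do not say how many animals stand behind a library, and p-values measure the spread between these libraries.

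miR-221 and miR-222 are cut from neighbouring hairpins on the X chromosome. Their 3p arms carry the same seed, the stretch near the 5′ end through which a miRNA pairs with messenger RNAs, and a well-known target is the mRNA of KIT, the receptor for stem cell factor. In the testis the pair is known from undifferentiated spermatogonia, where it holds KIT low, and it falls as spermatogonia differentiate. RS lie many divisions beyond that step and after meiosis, during which most X-linked genes are silenced.

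The mature sequences show why the 3p arms are described as a pair and the 5p arm apart. They are given 5′ to 3′ as RefSeq lists them for GRCm38.p6, with the seed (bases 2 to 8) in capitals.
miR-221-3p: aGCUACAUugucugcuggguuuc
miR-222-3p: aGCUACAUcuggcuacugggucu
miR-1928: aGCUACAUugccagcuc
miR-221-5p: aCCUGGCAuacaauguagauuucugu
The seed GCUACAU stood in 3 of 1679 mature mouse sequences, those of miR-221-3p, miR-222-3p and miR-1928. The 3p arms of the pair matched over their first 8 bases and, laid side by side without gaps, at 11 of 23 positions, so a read of full length separates them. miR-1928, from the minus strand of chromosome 1 (chr1:74206562-74206578), added almost nothing to the seed family here, with 4 counts in all 22 libraries. The seed of the 5p arm, CCUGGCA, belonged to miR-221-5p alone.

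All 3 members lie on the minus strand of the X chromosome. miR-221-3p spans chrX:19146307-19146329, miR-221-5p spans chrX:19146344-19146369 and miR-222-3p spans chrX:19146901-19146923. Their hairpins, Mir221 of 95 bases and Mir222 of 79 bases, are separated by 504 bases. In the GENCODE annotation no other gene overlapped them, so both are intergenic, and the nearest was the noncoding Gm14636 on the same strand, 10010 bases toward higher coordinates. The 3′ UTR of Kit (transcript Kit-204, 2177 bases, on chromosome 5) held the seed match ATGTAGC at positions 447 and 1978, each followed by an A. These 2 stretches are shown because they are the letters the shared seed could pair with, in capitals.
Kit site at position 447, chr5:75654980-75655009: gatgggagatatATGTAGCaagactagaaa
Kit site at position 1978, chr5:75656511-75656540: gtaaatattgaaATGTAGCaataatgtctt
Only the transcribed strand was searched. Of 4788 genes with a 3′ UTR at least as long, 15.8% held the same 7 letters within that length. How many of these held 2 copies, or an A after the match, was not counted. Kit mRNA is not measured by these libraries, and a match of letters is a description only.

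miR-221-3p was present in 22 of 22 libraries, always at a low level. In WT of the KO batch its level was 6.08, 7.77, 15.7, 15.3 and 12.9 CPM (counts scaled to library size, with one scaling over all 22 libraries), from 6, 8, 17, 19 and 14 counts. WT of the KI batch gave 15.5, 15.2, 17.1, 19.3, 12.95 and 15.4 CPM, from 25 to 44 counts. The WT means were 11.5 ± 4.40 CPM (SD, n = 5) and 15.9 ± 2.15 CPM (SD, n = 6). By mean CPM, miR-221-3p was 313th of 844 miRNAs with a count in WT of the KO batch and 282nd of 942 in WT of the KI batch. Among X-linked miRNAs it was 49th of 95 and 43rd of 102. It was thus near the middle of the X-linked miRNAs of RS.

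The libraries were rich in 3 miRNAs shared by late meiotic cells and spermatids, which do not separate RS from late meiotic cells. miR-34b-5p, miR-34c-5p and miR-449a-5p, which mark late meiotic cells and spermatids, summed to 159662 to 226744 CPM in the KO batch and to 330631 to 411481 CPM in the KI batch. Between the WT groups miR-34b-5p was higher in the KI batch by 1.02 on the log2 scale (SE 0.09, edgeR adjusted p = 1.6e-07). There miR-34c-5p was higher by 0.91 (SE 0.07, edgeR adjusted p = 5.8e-08), and miR-449a-5p did not pass (-0.10, SE 0.07). Of these 3, miR-34b-5p was lower in KO on the log2 scale (-0.27, SE 0.11, edgeR adjusted p = 0.0643). So was miR-34c-5p, in KO (-0.21, SE 0.08, edgeR adjusted p = 0.0809) and in KI (-0.11, SE 0.04, edgeR adjusted p = 0.0271). Over all miRNAs tested, 20.7% were called lower in KO and 19.9% in KI. Library totals ran from 559957 to 3239357 counts, and KO libraries had fewer counts than their WT (exact permutation test, two-sided, p = 0.0159). A level of 3 counts, the floor used here, corresponded to 1.08 to 4.30 CPM. Counting error alone would give miR-221-3p an SD of 3.31 CPM in WT of the KO batch and 2.72 CPM in WT of the KI batch, against the 4.40 and 2.15 CPM observed. Differences between single WT libraries of the KI batch were thus no larger than counting error gives.

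miR-222-3p was scarcer. It reached 57 counts over all libraries against 650 for miR-221-3p, a ratio of 11.4, and 11 of 22 libraries held fewer than 3 counts of it. WT of the KO batch had 3, 2, 0, 1 and 3 counts, or 1.71 ± 1.29 CPM (SD, n = 5). KO libraries had 1, 1, 4, 2 and 1 counts, or 2.16 ± 1.502 CPM (SD, n = 5). WT of the KI batch had 1, 4, 8, 5, 0 and 4 counts, or 1.73 ± 1.29 CPM (SD, n = 6). KI libraries had 3, 1, 2, 5, 3 and 3 counts, or 1.24 ± 0.568 CPM (SD, n = 6). The 4 groups overlapped throughout, and a difference in miR-222-3p was not detectable at this depth. With no filter on low counts, edgeR gave miR-222-3p an adjusted p of 0.841 in KO and 0.679 in KI.

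miR-221-5p, the other arm of the miR-221 hairpin, gave 26 counts in all and was absent from 10 of 22 libraries. All 5 WT libraries of the KO batch had 0 counts, which allows a level of up to 2.42 to 3.04 CPM per library. KO libraries had 1, 1, 0, 1 and 0 counts, every one of them inside that limit. WT of the KI batch had 1, 1, 2, 0, 2 and 3 counts, or 0.670 ± 0.422 CPM (SD, n = 6). KI libraries had 3, 2, 6, 3, 0 and 0 counts, or 0.933 ± 0.896 CPM (SD, n = 6). KI replicate 3, with 6 counts, was also the KI library with the most miR-221-3p. With no filter, edgeR gave miR-221-5p an adjusted p of 0.195 in KO, 0.648 in KI and 0.0886 between the WT groups, where DESeq2 gave 0.348, and no fold is given against WT libraries at 0. The opposite arm of miR-222, miR-222-5p, had 3 counts over all libraries. Intervals and floors here cover counting error only.

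**Figure D1:**
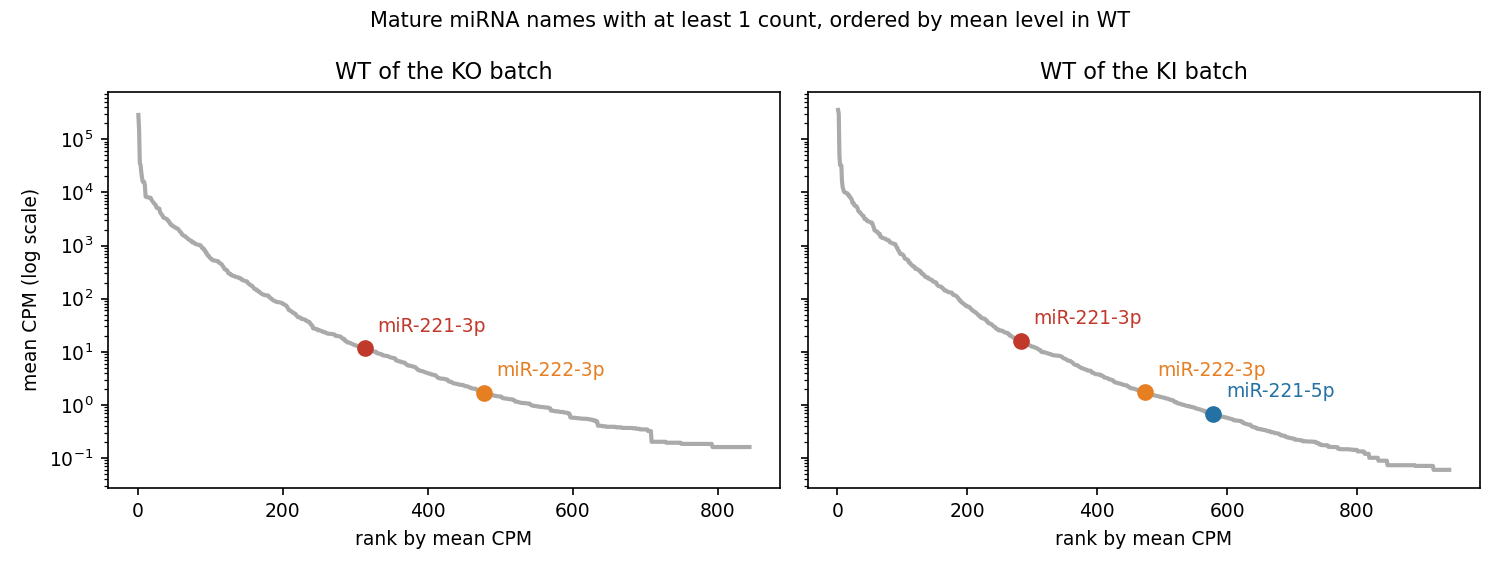
Mean CPM (log scale) of every miRNA with at least 1 count, ordered by rank, in WT of the KO batch (left) and WT of the KI batch (right), with the members marked. miR-221-3p lies at 11.5 and 15.9 CPM and miR-222-3p at 1.71 and 1.73 CPM, and miR-221-5p is missing on the left because all 5 libraries had 0 counts.

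In RS of KO mice miR-221-3p was higher than in WT. The 5 KO libraries had 25.4, 26.6, 33.5, 18.7 and 4.24 CPM, from 22, 30, 30, 13 and 3 counts, with a mean of 21.7 ± 11.1 CPM (SD, n = 5) against 11.5 ± 4.40 CPM in WT. Replicates 1 to 4 lay above every WT library, whereas replicate 5 was the lowest of all 22 libraries and stood at the floor of 3 counts. The groups therefore overlapped, as they did for all but 19.8% of the miRNAs tested. The fitted log2 fold change was 0.95 (SE 0.40, 95% interval 0.08 to 1.83), with an adjusted p of 0.0892 by edgeR's quasi-likelihood test, past the threshold of 0.1 used for calls. Calls were common in this comparison: 41.9% of the 334 miRNAs tested passed, 21.3% as higher in KO. Of the 3 members only miR-221-3p had enough counts to be tested. The SD between KO libraries, 11.1 CPM, exceeded the 5.23 CPM that counting error alone would give.

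The KO call was narrow. It was lost in DESeq2 (adjusted p = 0.102) and in 7 of the 10 edgeR fits that left out 1 library, those without WT replicate 1, 2 or 5 or KO replicate 1, 2, 3 or 4, with adjusted p from 0.118 to 0.222. Without KO replicate 5 the log2 fold change was 1.18 (SE 0.29, edgeR adjusted p = 0.0139). Every alternative kept the higher level in KO, between 0.73 and 1.18 on the log2 scale.

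**Figure D2:**
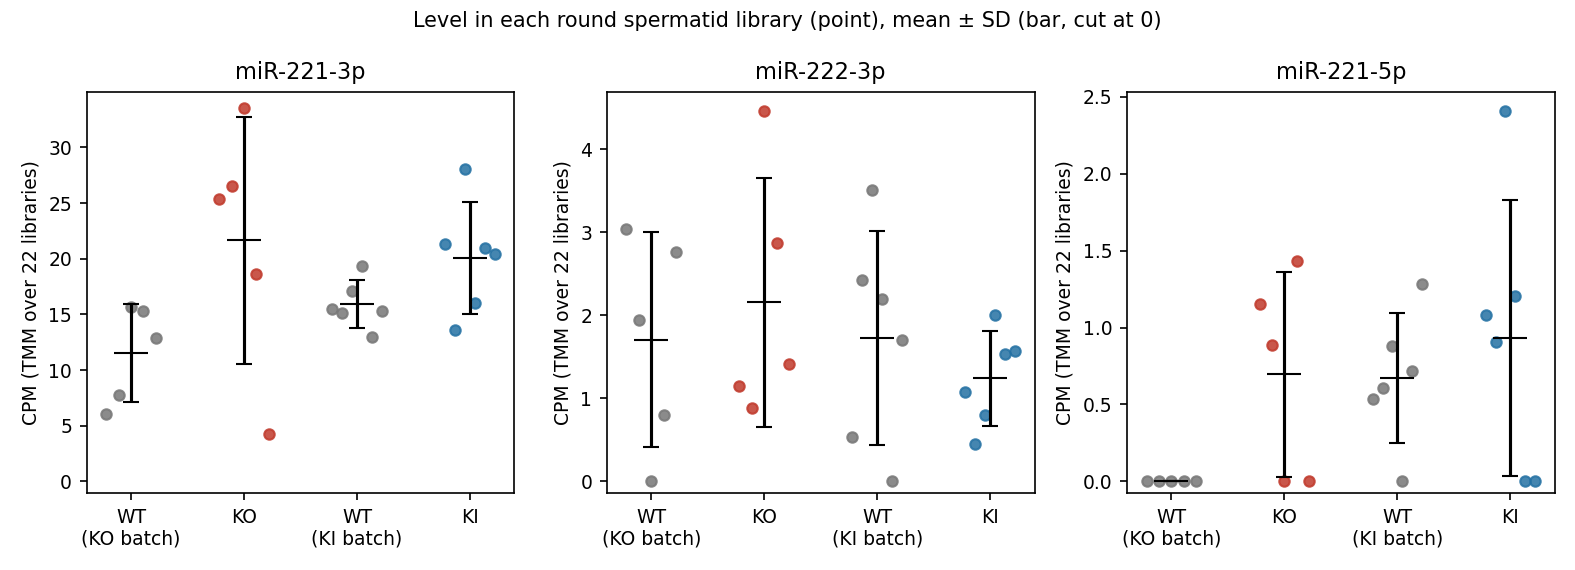
CPM of miR-221-3p, miR-222-3p and miR-221-5p in each library (points), with the mean and SD of each group (bars), on a separate linear axis for each miRNA. Of the KO libraries, 4 lie above every WT library of their batch for miR-221-3p and 1 lies at 4.24 CPM, while the groups of miR-222-3p overlap.

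In RS of KI mice miR-221-3p did not pass the threshold. The 6 KI libraries had 21.3, 13.6, 28.1, 16.02, 20.98 and 20.4 CPM, from 30 to 70 counts, with a mean of 20.1 ± 5.01 CPM (SD, n = 6) against 15.9 ± 2.15 CPM in WT. Of the KI libraries, 4 lay above every WT library and replicate 2 lay below all but 1 of them. Groups were free of overlap for 12.4% of the miRNAs tested here. The log2 fold change was 0.35 (SE 0.18, 95% interval -0.02 to 0.73) with an edgeR adjusted p of 0.140, in a comparison in which 38.0% of 387 miRNAs passed. The threshold was passed without WT replicate 4 (edgeR adjusted p = 0.0830), without KI replicate 2 (edgeR adjusted p = 0.0549) and with library totals as the only scaling (edgeR adjusted p = 0.0704). Without KI replicate 3 the log2 fold change was 0.23 (edgeR adjusted p = 0.323).

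The KO and KI effects on miR-221-3p did not differ beyond their errors. Each effect was measured in its own batch, so in their difference batch and genotype cannot be told apart. Because of the batch effect, the paper held that KI and KO could not be contrasted with confidence. The KO effect minus the KI effect was 0.59 on the log2 scale (SE 0.41, 95% interval -0.26 to 1.44, edgeR adjusted p = 0.507). In that test of the difference 0.0% of 421 miRNAs passed by edgeR, with 67 at an unadjusted p under 0.05, and 21 passed by DESeq2. Between the WT groups of the batches miR-221-3p differed by 0.39 (SE 0.23, edgeR adjusted p = 0.169), higher in the KI batch, where 56.7% of 383 miRNAs passed. With library totals as the only scaling it was 0.06 (SE 0.24, edgeR adjusted p = 0.854), and without WT replicate 3 of the KO batch it was 0.54 (edgeR adjusted p = 0.0812). Batch and genotype background cannot be told apart in that comparison.

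**Figure D3:**
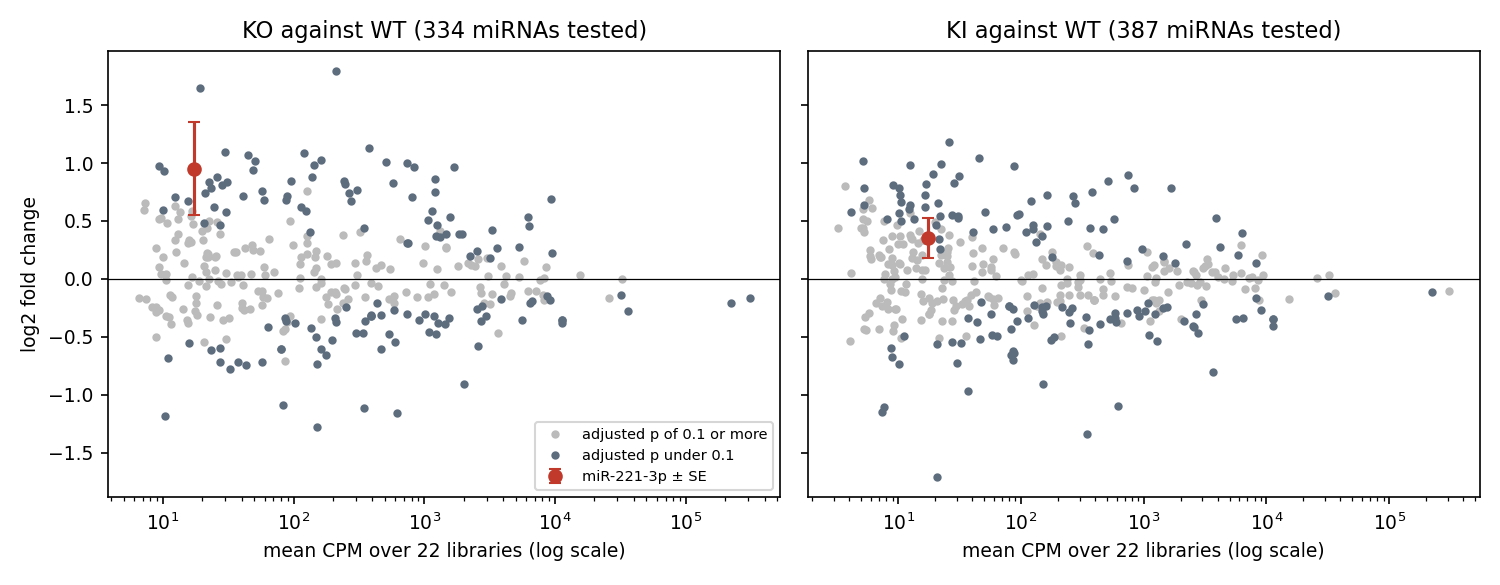
Log2 fold change against mean CPM (log scale) for every miRNA tested in KO against WT (left) and KI against WT (right), with miR-221-3p and its SE in red. miR-221-3p sits at 0.95 in KO and 0.35 in KI, among the miRNAs of low level.

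**Figure D4:**
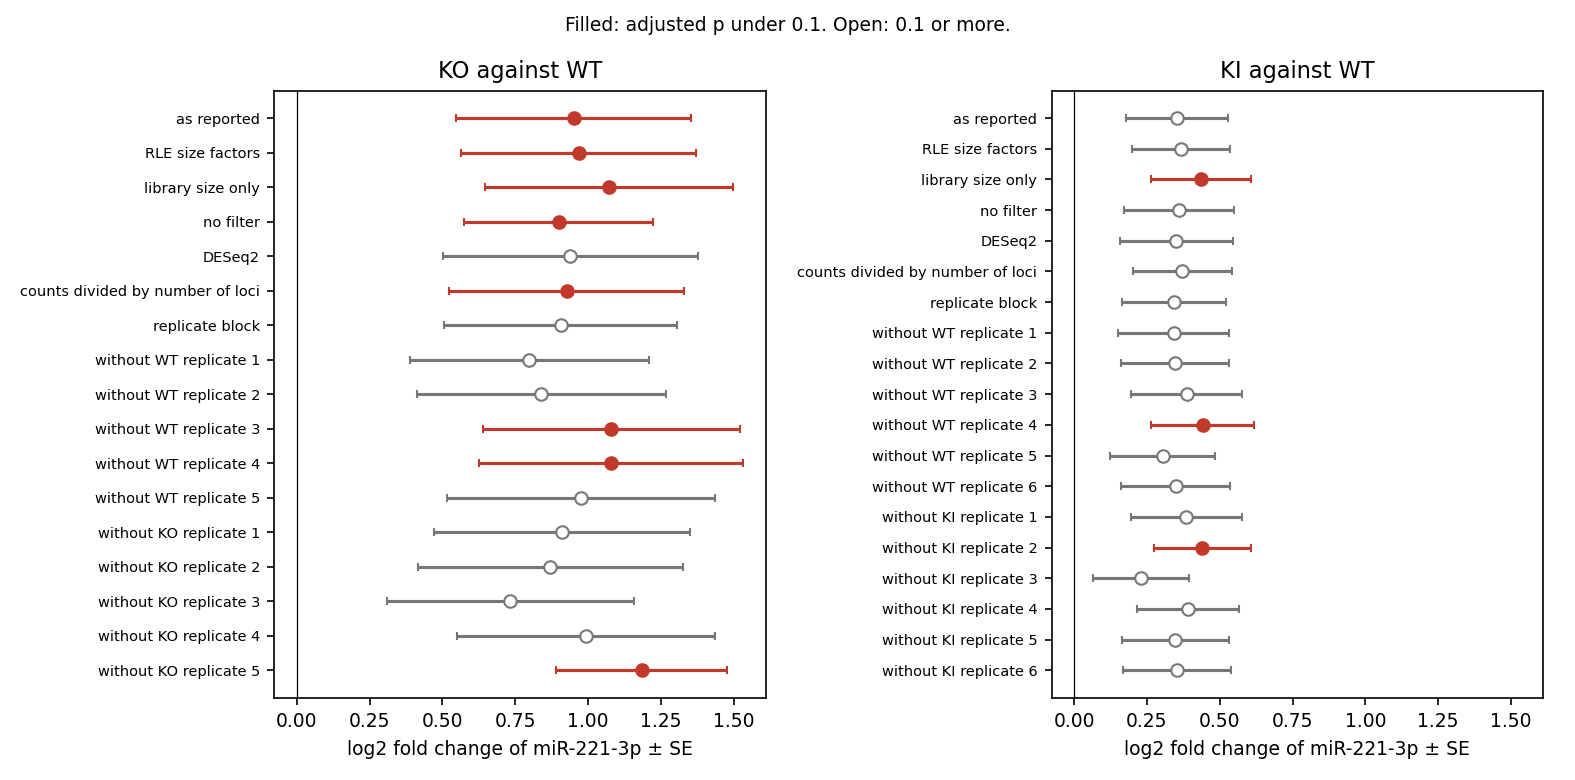
Log2 fold change of miR-221-3p with its SE as reported and under each alternative for KO (left) and KI (right), filled where the adjusted p was under 0.1. Every estimate is above 0, from 0.73 to 1.18 in KO and from 0.23 to 0.44 in KI.

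The balance within the pair was compared next. The log2 ratio of miR-221-3p to miR-222-3p, with 1 added to each count, was 2.67 ± 1.16 in KO (SD, n = 5) and 2.36 ± 1.36 in WT (SD, n = 5; exact permutation test, two-sided, p = 0.706, adjusted over 6 ratio tests 0.848). It was 3.65 ± 0.623 in KI (SD, n = 6) and 3.24 ± 1.14 in WT (SD, n = 6; exact permutation p = 0.468, adjusted 0.701). The ratio leaned toward miR-221-3p in every library, from 0.81 in WT replicate 1 of the KO batch to 5.21 in WT replicate 5 of the KI batch, where miR-222-3p had 0 counts. Between the WT groups it was higher by 0.88 in the KI batch (exact permutation p = 0.264, adjusted 0.528). The added 1 lowers the ratio more where counts are few, and depth differed between groups, most between the batches. From counts summed over libraries, with nothing added, the plain ratio was 10.9 in KO and 7.11 in its WT. It was 16.4 in KI and 9.5 in its WT. Neither genotype differed from its WT by more than the spread between libraries.

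Between the arms of miR-221, most counts fell on the 3p arm. The 5p arm took 26 of 676 counts of the hairpin, or 3.85% (exact binomial interval 2.53% to 5.58%). Its share was 4.33% ± 3.50 in KI (SD, n = 6) and 4.17% ± 2.54 in WT (SD, n = 6; exact permutation p = 0.948). In the KO batch it was 2.94% ± 3.04 in KO (SD, n = 5) and 0% in all 5 WT (exact permutation p = 0.167, adjusted 0.500). That 0% rests on 64 counts, which allow a share of up to 5.60% by the exact binomial interval. Between the WT groups, 4.17% against 0%, the exact permutation p was 0.0260, adjusted 0.156.

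Among X-linked miRNAs more were called lower than higher in both genotypes. Of 52 tested in KO, miR-221-3p included, 24 were lower and 6 higher, against 20.7% and 21.3% of all miRNAs tested, with a median log2 fold change of -0.22 against 0.01 for all. Of 59 tested in KI, 27 were lower and 4 higher, against 19.9% and 18.1% of all, with a median of -0.26 against 0.00. Many X-linked miRNAs of the testis come from clusters of near-identical copies, so these counts are not of independent genes. miR-221-3p was 1 of the 6 that rose in KO, beside miR-351-5p, miR-503-3p, miR-503-5p and miR-322-5p of one cluster and miR-223-3p, a miRNA of myeloid cells. The 4 that rose in KI were miR-223-3p, miR-503-3p, miR-322-5p and miR-374b-5p. These names were chosen after their values were seen. The nearest tested X-linked neighbours lay far off: miR-1198-5p, 11.3 Mb toward lower coordinates, was lower in KI (-1.15, SE 0.26, edgeR adjusted p = 0.0047), and miR-20b-5p, 33.6 Mb toward higher coordinates, was at -0.04 (SE 0.21, edgeR adjusted p = 0.902). Neither had enough counts in the KO comparison.

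Other miRNAs studied in undifferentiated spermatogonia were listed to set the pair beside them. Of 9 listed, 8 were tested. In KO 3 were higher, miR-146a-5p (1.13, SE 0.24), miR-322-5p (0.82, SE 0.19) and miR-10b-5p (1.002, SE 0.21), and miR-135a-5p was lower (-0.61, SE 0.17), where 21.3% of all miRNAs were called higher and 20.7% lower. The median log2 fold change of the 8 was 0.07, against 0.01 for all miRNAs. In KI 3 were higher, miR-146a-5p by 0.75 (SE 0.15), miR-322-5p by 0.52 (SE 0.11) and miR-10b-5p by 0.90 (SE 0.16), and none was lower, where 18.1% of all were higher and 19.9% lower, and the median was 0.07 against 0.00. miR-21a-5p and miR-20a-5p, the most abundant of the list, did not pass, at -0.12 and 0.01 in KO and 0.10 and 0.03 in KI. All 8 let-7 miRNAs, which rise as spermatogonia differentiate, were tested: 1 was higher and 1 lower in KO, and 1 higher and 2 lower in KI, beside the same shares, with medians of 0.11 and -0.01.

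Of the markers of other cells, those of smooth muscle and stroma were higher in both genotypes. Part of the blood and immune miRNAs were higher in both and none was called lower. The endothelial and striated muscle markers had no common direction. All 4 tested miRNAs of smooth muscle and stroma, of 6 listed, were called higher in KO and in KI. Of all miRNAs tested, 21.3% were called higher in KO and 18.1% in KI. The 4 were miR-143-3p, miR-145a-5p, miR-199a-3p and miR-199a-5p. The last 2 are arms of the same miRNA, so the 4 are not independent. The 4 had medians of 0.98 in KO and 0.68 in KI, against 0.01 and 0.00 for all. Their summed level, over the 6 listed, was 634 to 1856 CPM in WT and 1808 to 3742 CPM in KO, and 1203 to 2041 CPM in WT and 2063 to 4783 CPM in KI. In KO replicates 1 to 5 the sum was 2975, 3742, 2458, 2467 and 1808 CPM, so replicate 5 was the lowest in both measures, while replicate 3, the highest in miR-221-3p, was the second lowest in the sum. In WT of the KO batch replicate 1, the lowest in miR-221-3p at 6.08 CPM, was the second highest in the sum at 1533 CPM. In WT of the KI batch replicate 1 was the highest in the sum at 2041 CPM, and replicate 4 in miR-221-3p at 19.3 CPM. KI replicate 3 was the highest KI library in both. Of 6 tested blood and immune miRNAs, 3 were higher in KO and 5 in KI, against the same 21.3% and 18.1%, with medians of 0.40 and 0.54. miR-451a of red cells was not called in either, and miR-144-3p had 1 count in all. The endothelial miR-126a-3p was not called, at 0.38 in KO and -0.04 in KI. Summed over the 2 listed, the endothelial level in KO replicates 1 to 5 was 308, 305, 353, 300 and 140 CPM. As for miR-221-3p, it was highest in replicate 3 and lowest in replicate 5. WT of the KO batch had 152, 139, 356, 284 and 172 CPM, with replicate 3 again the highest in both. WT of the KI batch had 181, 186, 242, 360, 200 and 221 CPM, with replicate 4 the highest in both. The lowest there was replicate 1 in the sum and replicate 5 in miR-221-3p. KI replicates had 217, 149, 174, 427, 221 and 158 CPM. There replicate 4 was highest in the sum and second lowest in miR-221-3p. Of the striated muscle markers, miR-1a-3p was higher in KO (1.79, SE 0.61) and at -0.49 in KI. The sum of the 2 listed was 147, 31.9, 35.8, 11.5 and 28.3 CPM in KO replicates 1 to 5, so replicate 1 stood apart. In WT of that batch it was 8.10 to 29.5 CPM. Between the WT groups miR-1a-3p differed by 5.03 (SE 0.63), higher in the KI batch. The part of other cells in the level of miR-221-3p was not tested, and more such cells cannot be told apart from more RNA per cell.

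**Figure D5:**
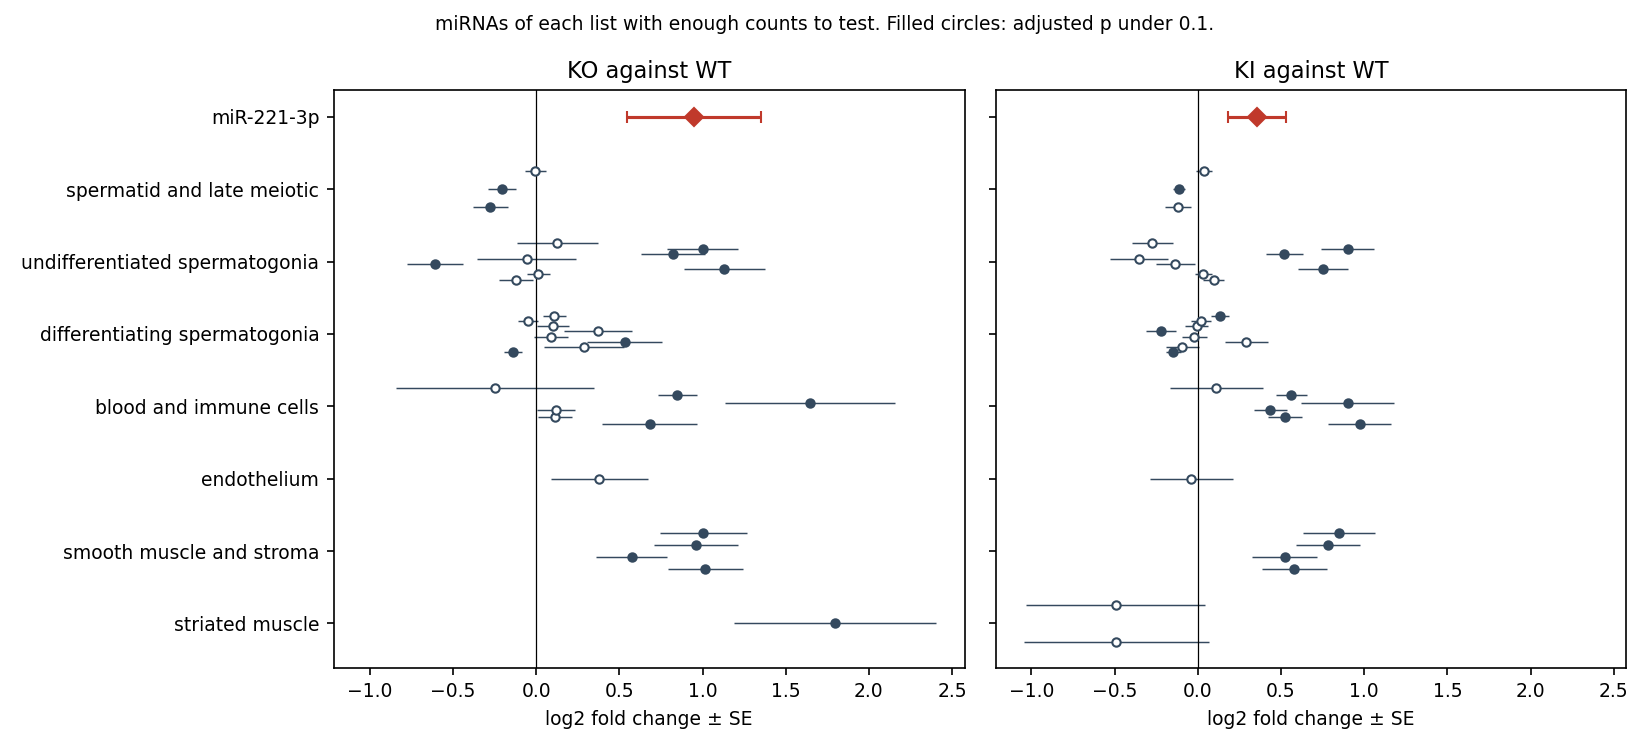
Log2 fold change with SE of miR-221-3p (diamond) and of the tested miRNAs of each list (circles, filled where the adjusted p was under 0.1), in KO (left) and KI (right). All 4 smooth muscle and stroma miRNAs lie right of 0 in both, as does miR-221-3p, and the spermatogonial list is split.

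The miRNAs that varied most like miR-221-3p across libraries were found by correlating log2 CPM, centred within each batch, over 22 libraries and 329 miRNAs of at least 10 CPM. They were let-7c-5p (Pearson r = 0.73), miR-218-5p (0.70), miR-125b-5p (0.68), miR-99a-5p (0.67) and miR-125a-5p (0.67), against a median r of -0.03. Without the 2 libraries farthest from the median of miR-221-3p the values were 0.79, 0.58, 0.79, 0.69 and 0.71. The libraries share genotype, batch and depth, so these values are a description. Centring within each batch left the difference between genotypes in the values, so that difference enters r. Within the KO batch r was 0.75, 0.73, 0.73, 0.74 and 0.76 in the same order, and within the KI batch 0.68, 0.78, 0.49, 0.72 and 0.18, lowest for miR-125a-5p. In KO, let-7c-5p was higher by 0.53 (SE 0.22), miR-125b-5p by 0.69 (SE 0.20), miR-99a-5p by 0.68 (SE 0.24) and miR-125a-5p by 0.51 (SE 0.22), and miR-218-5p did not pass (0.50, SE 0.26). In KI, miR-218-5p was higher by 0.55 (SE 0.17) and miR-99a-5p by 0.66 (SE 0.20), and let-7c-5p (0.29, SE 0.13), miR-125b-5p (0.21, SE 0.14) and miR-125a-5p (0.03, SE 0.13) did not pass. Over all miRNAs tested, 21.3% were called higher in KO and 18.1% in KI. Because these miRNAs were picked by r, their changes are not separate support for that of miR-221-3p.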

How the data were processed

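Small RNA libraries were made from RS isolated by enzymatic digestion and albumin gradient sedimentation. The small RNA fraction is given as over 200 bases in the labels and under 200 bases in the methods. The deposited values are raw counts per mature miRNA name, which the authors made with featureCounts. The submitters' processing notes list cutadapt 3.4, FastQC 0.11.9, Bowtie2 2.4.2, SAMtools 1.12, Subread 2.0.1 and the mm10 build. Per the methods, Bowtie2 could report many loci for a read, and reads were counted by strand. How the counting step treated reads reported at several loci was not stated. In the table, 82 names have more than 1 locus, none of them a member. The methods of the study give the batches in the other order than the labels, which were followed.

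The members and lists were chosen with earlier results of these data known. Members were all named whatever their values, with miRNAs sharing their seed, the nearest tested X-linked neighbours on each side, list members that passed and the 5 miRNAs most correlated with each tested member. Counts were filtered (filterByExpr), scaled by TMM and tested per batch with edgeR 4.0.16 (quasi-likelihood, Benjamini-Hochberg adjusted p under 0.1) in R 4.3.3, over all miRNAs, and WT between batches and the KO minus KI effect likewise over the libraries concerned. Ratios and library totals were compared by exact permutation. The fits were also run on simulated data with changes planted only among miRNAs that passed the filter. Those runs left out scarcer miRNAs and did not test low counts separately. CPM used 1 TMM scaling over all 22 libraries, which held 559957 to 3239357 counts. Correlations used log2(CPM + 1). No pair of libraries of a group agreed within sampling noise. Alternatives were DESeq2 1.42.0, median-ratio scaling, library totals only, no filter, counts divided by loci, a replicate block and leaving out each library. Sequences and positions came from RefSeq and GENCODE.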

Additional observations from a re-analysis of the deposited data

How the results depend on the processing

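With 3 to 30 counts of miR-221-3p per library in the KO batch, 1 library moved its call, and miR-222-3p and miR-221-5p were too scarce to test. The KO log2 fold change of miR-221-3p lost its call under DESeq2 (0.94, adjusted p = 0.102) and under the replicate block (0.91, edgeR adjusted p = 0.121). The replicate block with no filter on low counts kept the call (edgeR adjusted p = 0.0334). The KO log2 fold change ranged from 0.73 to 1.18 when each library was left out. Whether replicate numbers pair the libraries was not clear. Same-numbered deviations correlated by 0.05 on average in the KO batch and 0.19 in the KI batch, over 0.1 in 2 of 5 and 3 of 6 pairs. The best match of a WT library had its own number in 2 of 5 and 3 of 6, with r up to 0.31 and 0.56. The KI value gained a call with library totals only (0.43) and ranged from 0.23 to 0.44, and the difference between WT groups ranged from 0.25 to 0.54 when each library was left out and was 0.06 with library totals only. The number of miRNAs called for the KO minus KI effect was 21 by DESeq2, 25 with the replicate block and 0 to 26 when a library was left out. The WT level in the KI batch was 13.6 CPM by library totals. The KO difference in the log2 ratio of the 3p arms ranged from -0.08 to 0.76, and turned below 0 without KO replicate 2 (-0.01) or WT replicate 1 (-0.079). The KI difference in the 5p share ranged from -0.68 to 1.02 percentage points, below 0 without KI replicate 2 (-0.23), 3 (-0.56) or 4 (-0.37) or WT replicate 1 (-0.0092) or 4 (-0.68). Between WT groups it ranged from 3.46 to 5.003 points, past the threshold without WT replicate 4 of the KI batch (exact permutation, adjusted p = 0.0476). The causes were not tested. Of the other alternatives, 368 values kept their direction and their side of the threshold, or moved by less than the replicate spread. DESeq2 gave no adjusted p for miR-222-3p and miR-221-5p in KO or KI.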
